A study of Mus musculus with 5 samples.

Results

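C-type lectin receptors of the CLEC family and related lectin genes were examined in dendritic cells of the mouse thymus after total body irradiation (TBI). Members were the genes of the count table whose symbol was Clec followed by a digit, plus Cd207, Ly75, Mrc1, Mrc2, Mgl2 and Colec12, which gave 35 genes of 18051. Cells came from C57BL/6J mice aged 6-8 weeks. Libraries came from mice harvested 4 days after TBI (3 libraries) and from untreated mice (2 libraries), and both groups were of the same strain with no genetic change named in the labels. Thymi were pooled before sorting for CD45, MHC class II and CD11c, and the labels do not say whether replicates came from separate pools, so p-values measure the spread between these libraries, which may be technical. The radiation dose is not given in the sources used here.

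C-type lectin receptors recognise sugars, lipids or proteins of microbes and of dying host cells through a C-type lectin-like fold. In myeloid cells some of them activate the kinase SYK, either through a tyrosine motif in their own tail or through partner chains with such motifs, and SYK then signals through CARD9, BCL10 and MALT1. Others carry an inhibitory tyrosine motif (ITIM) that recruits phosphatases, and a further set, which includes DEC-205, langerin and the mannose receptor, takes up ligands for degradation and antigen presentation. Dendritic cell and macrophage subsets differ in which of these receptors they carry, and Clec9a and Cd207 are used in mice to tell such subsets apart.

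The libraries held 7549053 to 8428589 counts after TBI and 7227000 to 7346330 counts untreated, and a single count was worth 0.123 to 0.145 CPM. CPM values are counts scaled to a common library size with the trimmed mean of M-values (TMM). On the second principal component TBI replicate 1 scored -48.8, far from replicates 2 and 3 at 34.5 and 21.6. The list of sorted dendritic cell markers held 8 genes, Cd74 and Ptprc (CD45) among them. They summed to 60224, 47911 and 42267 CPM after TBI and 62993 and 61764 CPM untreated. Cd74 was the largest, with 31984, 24126 and 22139 CPM after TBI and 28138 and 27765 CPM untreated. None of the 8 was at 0, while 5 were lower after TBI (Flt3, Zbtb46, Itgax, H2-Aa and H2-Ab1) and 0 were higher. Flt3 averaged 36.9 CPM after TBI and 327.6 CPM untreated, and Zbtb46 averaged 22.5 and 53.5 CPM. Marker genes of macrophages, monocytes and natural killer cells were also counted in both groups, with higher summed levels after TBI. The monocyte sum was mostly Lyz2, and 3 monocyte markers (Ly6c2, Plac8 and Treml4) were lower.

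**Figure D1:**
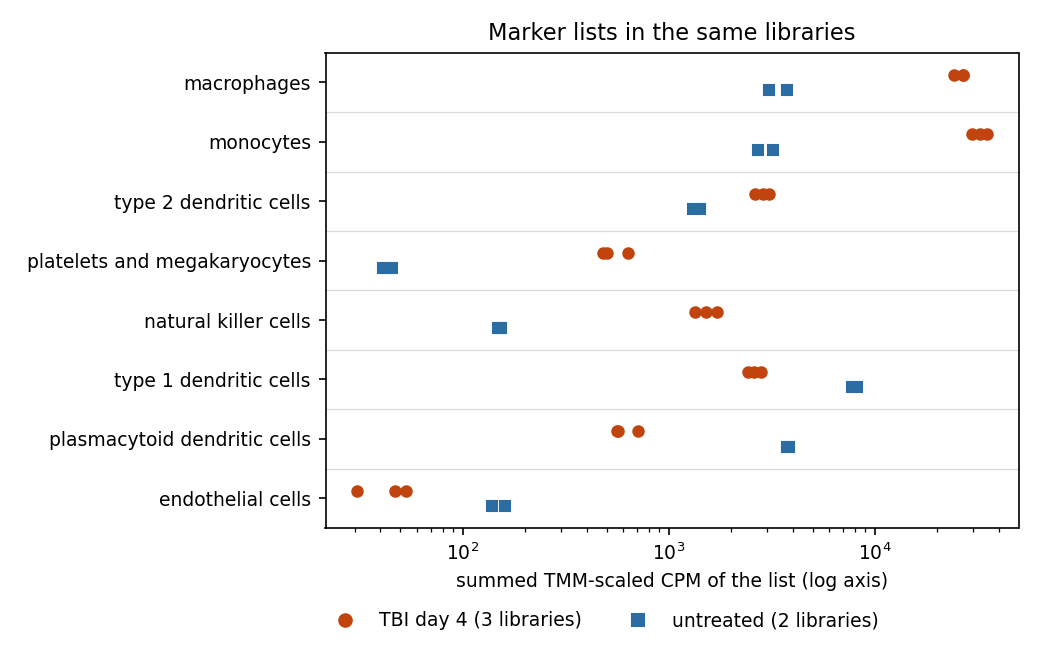
Summed TMM-scaled CPM (horizontal, log axis) of 8 marker lists (rows), with 1 circle for each of 3 TBI libraries and 1 square for each of 2 untreated libraries. Macrophage markers summed to 24303 to 26880 CPM after TBI and 3077 to 3741 CPM untreated, and type 1 dendritic cell markers to 2424 to 2803 CPM after TBI and 7703 to 8156 CPM untreated.

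The lectin genes split into a larger set that rose after TBI and a smaller set that fell. Mrc1, Clec4d, Colec12 and Clec4b1 were more than 10-fold higher in the TBI libraries, and Cd207, Clec9a, Clec4b2 and Ly75 were more than 3-fold lower. Of the 35 genes, 24 had enough counts to be tested. With edgeR's quasi-likelihood test at an adjusted p of 0.05, 14 of the 24 (58.3%) were higher, 5 (20.8%) were lower and 5 did not pass. Over all 12046 genes tested, 13.3% were higher and 9.79% were lower. Those shares are also the background for the counts of each role group, chromosome block and marker list. Higher genes made up 57.6% of all called genes, and 36.8% when libraries were scaled by their totals alone, a scaling under which 12 lectin genes were higher and 5 were lower. The median log2 fold change was 1.23 over the 24 lectin genes and -0.01 over all genes tested, and the median absolute value was 2.01 against 0.42. The groups did not overlap for 20 of the 24 genes (83.3%), against 56.1% of all genes tested (27.8% higher and 28.3% lower). Genes with too few counts in both groups are missing from these shares, which therefore do not describe all 35 genes. In RNA from a sorted population, fewer cells of a type and less RNA per cell cannot be told apart.

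Summed over the 35 genes, the libraries held 20672, 26290 and 24208 counts after TBI and 12855 and 11985 counts untreated, which is 0.274%, 0.312% and 0.305% of all counts after TBI and 0.175% and 0.166% untreated. The make-up of that total differed between the groups. Clec7a held 20.0%, 19.6% and 16.9% of lectin counts after TBI and 28.1% and 26.2% untreated. It was the largest single source in each library except TBI replicate 3, where Mrc1 and Mgl2 exceeded it. Mrc1 and Mgl2 came next in TBI replicates 1 and 2. Clec12a and Cd207 came next in untreated cells, where Cd207 held 10.6% and 14.4% of lectin counts, against 0.111%, 0.107% and 0.202% after TBI.

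**Figure D2:**
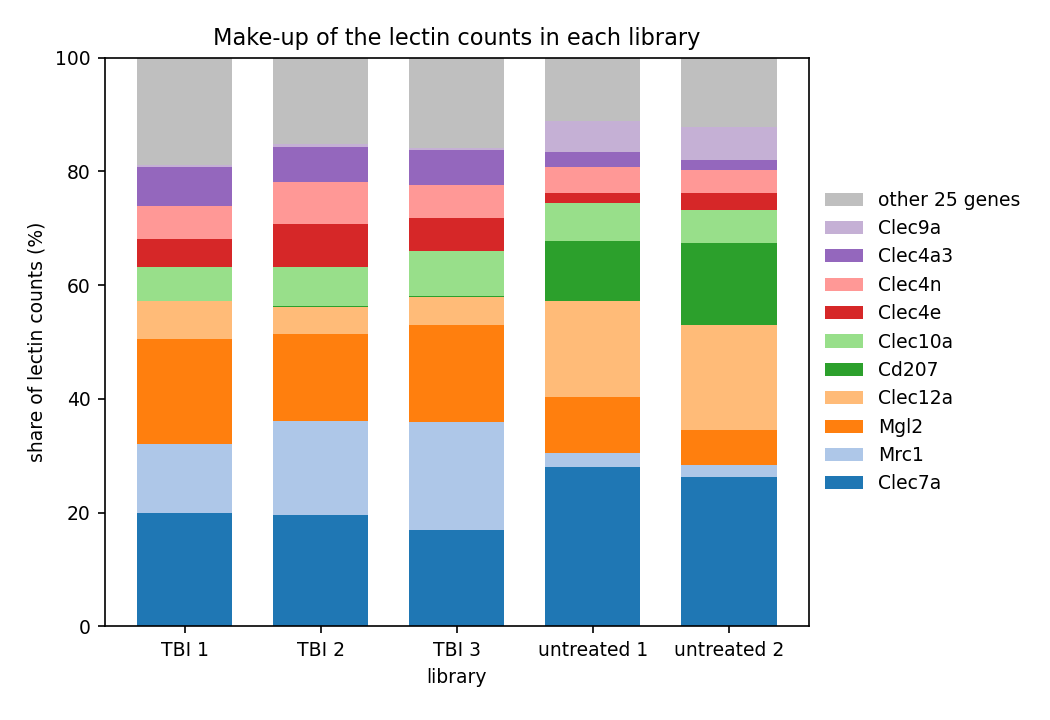
Share of the counts of the 35 lectin genes (vertical, %) that fell on each of the 10 genes with the highest share in any library and on the other 25 genes, for 3 TBI and 2 untreated libraries. Mrc1 held 12.0% to 19.1% after TBI and 2.20% to 2.31% untreated, and Cd207 at most 0.202% after TBI and at least 10.6% untreated.

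Levels of different genes were compared per kilobase of annotated exon. After TBI the highest were Mgl2 (255 CPM per kilobase), Clec7a (225), Clec4a3 (154), Clec4n (141) and Clec4b1 (139.5). The single-library ranges of Clec4a3, Clec4n and Clec4b1 overlapped, so their order is not resolved here, and those of Mgl2 and Clec7a also overlapped. In untreated cells the highest were Clec7a (159.9 CPM per kilobase), Cd207 (127), Mgl2 (59.3), Clec12a (49.7) and Clec4n (46.04). Mgl2, Clec12a and Clec4n overlapped there, while Clec7a and Cd207 did not. By rank among the 35 genes, Cd207 was 17 after TBI and 2 untreated, Clec9a was 16 after TBI and 7 untreated, Clec4b1 was 5 after TBI and 11 untreated, and Mrc1 was 6 after TBI and 16 untreated.

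**Figure D3:**
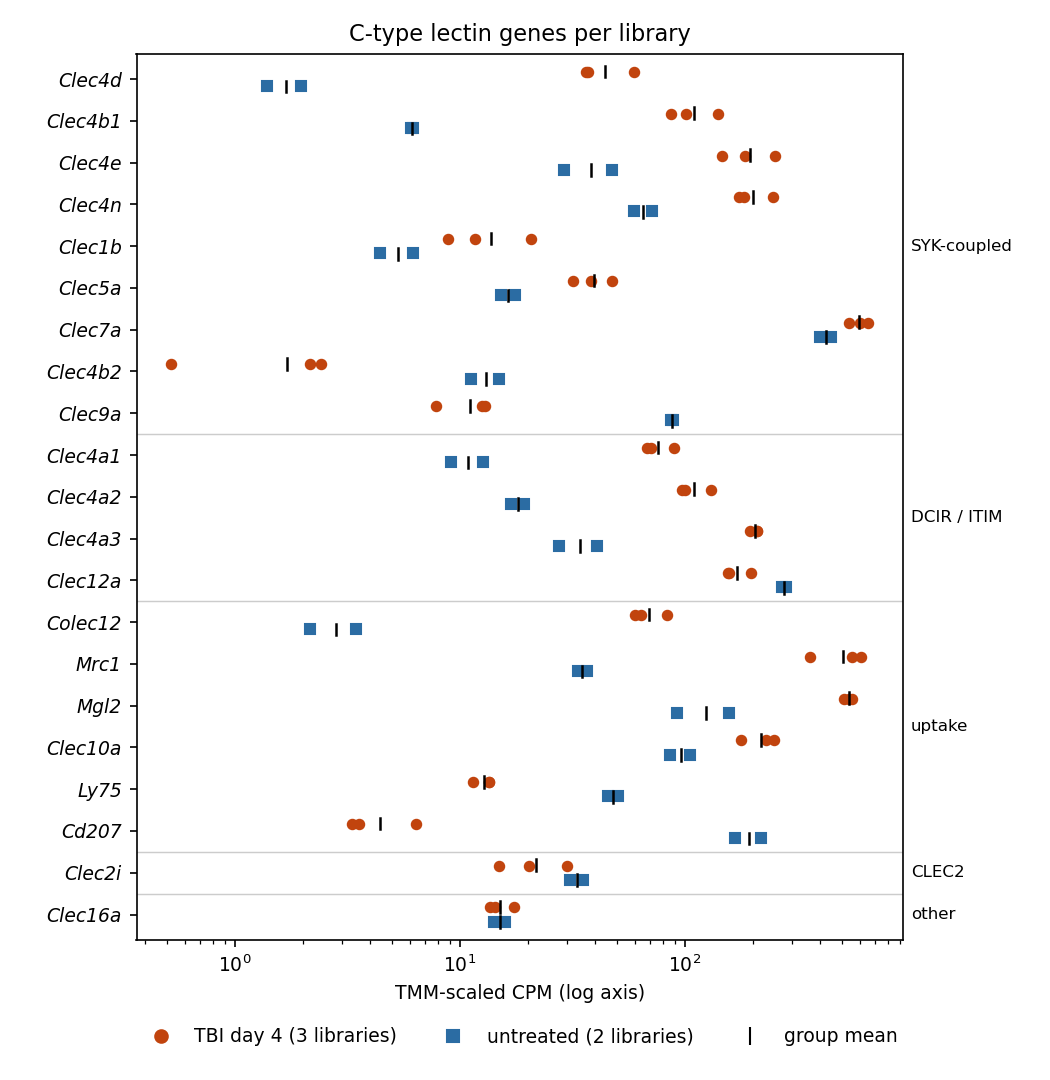
TMM-scaled CPM (horizontal, log axis) of the 21 lectin genes with a mean of at least 10 CPM in either group, grouped by role, with 1 circle for each of 3 TBI libraries, 1 square for each of 2 untreated libraries and a bar at the group mean. Circles and squares overlap in range only for Clec16a; Clec2i lies close, with 14.9 to 29.8 CPM after TBI and 30.7 to 35.4 CPM untreated.

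On chromosome 6, which carries 23 of the 35 genes, 2 dense blocks hold 19 of them. The first block spans 368.0 kb of GRCm38 (the build also called mm10), chromosome 6, 122921848 to 123289870, and holds in order Clec4a1, Clec4a3, Clec4a4, Clec4b1, Clec4a2, Clec4b2, Clec4n, Clec4d and Clec4e. Of these 7 were higher after TBI, 1 (Clec4b2) was lower and 1 (Clec4a4) had too few counts. Their summed level was 908, 1022 and 887 CPM after TBI and 192 and 184 CPM untreated. The second block spans 585.2 kb, 128887588 to 129472779, from Clec2i to Clec7a, and holds 10 members. There 2 were higher (Clec1b and Clec7a), 2 were lower (Clec12a and Clec9a), 2 did not pass and 4 had too few counts. Its summed level was 849, 859 and 734 CPM after TBI and 844 and 809 CPM untreated, so the sums of the groups overlapped.

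**Figure D4:**
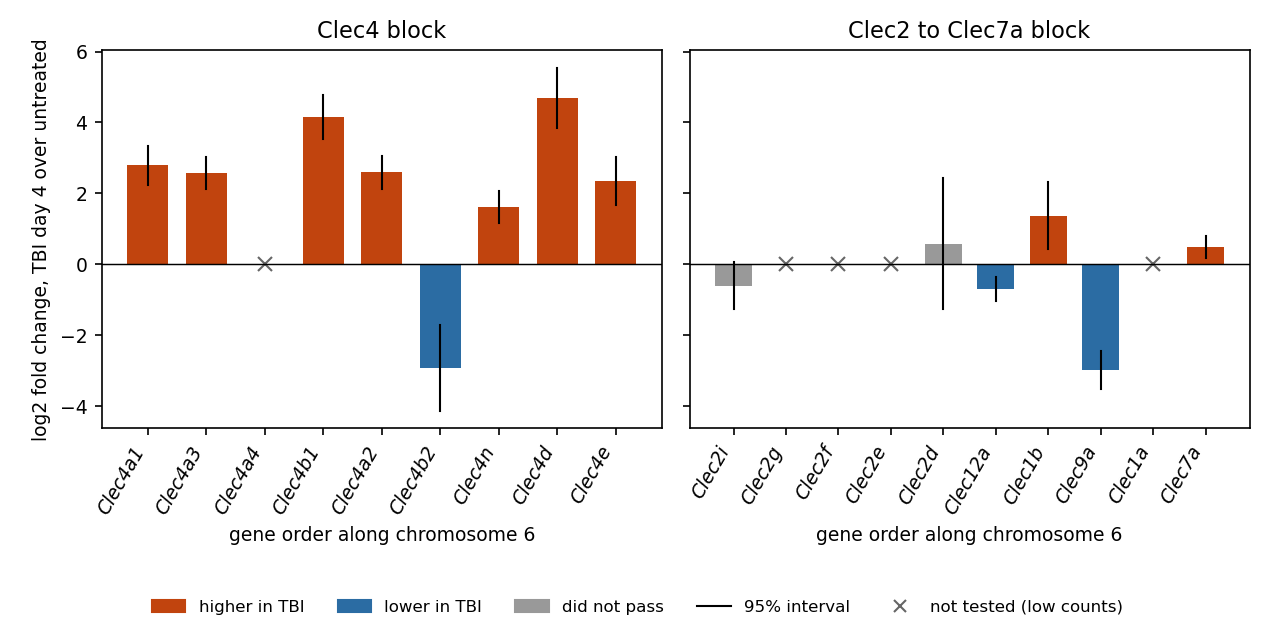
Log2 fold change, TBI day 4 over untreated (vertical; black lines are 95% intervals), for the members of the 2 blocks on chromosome 6 in gene order, with crosses for genes with too few counts to test. In the Clec4 block each tested gene except Clec4b2 lies above 0, while in the other block Clec9a at -2.98 lies next to Clec1b at 1.37.

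Promoters are shown for the 2 DCAR genes of the Clec4 block that moved in opposite directions (Clec4b1 and Clec4b2), for the neighbours Clec4d and Clec4e that rose, and for the genes with the lowest log2 fold changes of the set (Cd207 and Clec9a). Each sequence is from RefSeq on GRCm38.p6 and runs 5′ to 3′ from 250 bases before to 50 bases after the annotated start. Capitals mark matches, on either strand, to the TATA box TATAAA, the PU.1 core GAGGAA (PU.1 is a myeloid ETS factor), the AP-1 motif TGANTCA, the composite ETS and IRF element (GGAA, 2 further bases, then the letters GAAA) or the E-box CACCTG. The windows are chr6:123049712-123050011, plus strand for Clec4b1, chr6:123172773-123173072, plus strand for Clec4b2, chr6:123261857-123262156, plus strand for Clec4d, chr6:123289822-123290121, minus strand for Clec4e, chr6:83677808-83678107, minus strand for Cd207 and chr6:129408612-129408911, plus strand for Clec9a.
Clec4b1: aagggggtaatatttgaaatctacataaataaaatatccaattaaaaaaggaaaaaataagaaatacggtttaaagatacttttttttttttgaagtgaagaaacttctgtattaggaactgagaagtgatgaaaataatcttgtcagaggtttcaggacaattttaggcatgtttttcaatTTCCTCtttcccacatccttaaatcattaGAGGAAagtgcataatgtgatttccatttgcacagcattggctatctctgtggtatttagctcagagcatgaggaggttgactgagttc
Clec4b2: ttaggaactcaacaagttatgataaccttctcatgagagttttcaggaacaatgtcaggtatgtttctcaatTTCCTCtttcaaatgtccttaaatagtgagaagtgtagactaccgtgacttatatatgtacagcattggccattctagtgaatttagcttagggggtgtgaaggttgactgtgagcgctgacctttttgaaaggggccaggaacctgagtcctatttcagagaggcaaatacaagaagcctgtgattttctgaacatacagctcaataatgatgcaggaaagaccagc
Clec4d: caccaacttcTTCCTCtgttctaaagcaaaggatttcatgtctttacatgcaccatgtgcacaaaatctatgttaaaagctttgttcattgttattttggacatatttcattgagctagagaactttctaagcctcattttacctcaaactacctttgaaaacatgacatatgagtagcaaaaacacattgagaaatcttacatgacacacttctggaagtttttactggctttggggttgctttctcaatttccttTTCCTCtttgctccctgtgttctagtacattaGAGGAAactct
Clec4e: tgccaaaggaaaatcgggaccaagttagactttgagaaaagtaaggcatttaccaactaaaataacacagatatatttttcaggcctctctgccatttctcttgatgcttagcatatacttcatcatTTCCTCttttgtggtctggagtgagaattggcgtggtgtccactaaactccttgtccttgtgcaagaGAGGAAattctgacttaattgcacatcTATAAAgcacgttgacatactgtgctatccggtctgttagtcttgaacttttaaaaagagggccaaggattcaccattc
Cd207: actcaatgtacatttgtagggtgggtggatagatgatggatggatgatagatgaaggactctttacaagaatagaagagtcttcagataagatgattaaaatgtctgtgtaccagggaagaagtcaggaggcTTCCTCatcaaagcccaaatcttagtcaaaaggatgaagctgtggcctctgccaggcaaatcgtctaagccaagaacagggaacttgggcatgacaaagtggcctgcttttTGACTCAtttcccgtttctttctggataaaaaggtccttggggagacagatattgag
Clec9a: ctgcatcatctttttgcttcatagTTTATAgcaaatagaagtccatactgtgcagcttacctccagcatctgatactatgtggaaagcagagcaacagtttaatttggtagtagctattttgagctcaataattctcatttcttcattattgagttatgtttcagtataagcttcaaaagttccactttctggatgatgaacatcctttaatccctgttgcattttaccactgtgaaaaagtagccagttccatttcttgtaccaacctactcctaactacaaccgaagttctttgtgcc

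The Clec4b1 and Clec4b2 windows shared a run of 15 bases, tcaatttcctctttc, which starts at -73 from the annotated start of Clec4b1 and at -183 from that of Clec4b2. It contains 1 GAGGAA match on the minus strand. Clec4b1, Clec4d and Clec4e, which rose, held 2, 3 and 2 GAGGAA matches, and Clec4b2, which fell, held 1. Most of the 3 matches of Clec4d lay after the annotated start. Among other members, Mrc1 rose with 3 matches and Ly75 fell with 0, but Clec4a2 and Clec1b rose with 0 and Clec12a fell with 2. The number of matches therefore did not separate the genes that rose from those that fell. Clec4e also held TATAAA at -29. Cd207 held 1 GAGGAA and 1 TGANTCA match. Clec9a held 1 TATAAA match, at -226 and on the minus strand, and none of the other motifs. Promoters were listed for 27 of the 35 genes, as 30 windows. GAGGAA was found in 18 of those 30 windows and in 28.3% of 32851 windows over all genes. TATAAA was found in 8 member windows (26.7%) and 13.6% of all, and TGANTCA in 6 member windows and 7.81% of all. The composite element was found in 5 windows of 3 genes (Clec2i, Clec4a1 and Clec7a), 16.7% against 2.72%, and CACCTG in 1 window (3.33%) against 20.2%. A match is a description of letters in the window and says nothing of binding.

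Among receptors that activate SYK, directly or through a partner chain, 7 of 9 rose, 2 fell and all 9 were tested. Clec4d, which encodes the mycobacterial glycolipid receptor MCL, had 36.4, 59.1 and 37.1 CPM after TBI and 1.97 and 1.39 CPM untreated. All TBI libraries lay above both untreated libraries, and the log2 fold change with its SE was 4.70 ± 0.37 by edgeR (adjusted p = 5.86e-05). Clec4e encodes Mincle, a receptor for trehalose glycolipids and for a nuclear protein released by dead cells, which pairs with MCL. It had 146, 250.5 and 184 CPM after TBI and 28.9 and 47.3 CPM untreated, a log2 fold change of 2.35 ± 0.29 (adjusted p = 7.12e-04). The ratio of Clec4d to Clec4e counts within a library was 0.249, 0.236 and 0.201 after TBI and 0.0684 and 0.0294 untreated, so the minor partner by count gained on the other in each TBI library.

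Clec4n, which encodes the fungal mannan receptor Dectin-2, had 174, 246 and 183 CPM after TBI and 71.1 and 59.7 CPM untreated. The groups did not overlap and the log2 fold change was 1.62 ± 0.19 (adjusted p = 5.80e-04). Clec7a, which encodes the beta-glucan receptor Dectin-1 and is annotated as a polymorphic pseudogene in GENCODE, had 597, 652 and 533 CPM after TBI and 446 and 398 CPM untreated, a fold change of 1.41 (log2 0.49 ± 0.14; adjusted p = 0.0317). Its call was not kept with upper quartile scaling (adjusted p = 0.0501), with library size alone (0.155), or without TBI replicate 2 (0.110), untreated replicate 1 (0.134) or untreated replicate 2 (0.298). Clec5a encodes MDL-1, a receptor that signals through DAP12. It had 31.9, 38.4 and 47.4 CPM after TBI and 15.2 and 17.6 CPM untreated, a log2 fold change of 1.26 ± 0.24 (adjusted p = 0.00609), and did not pass without untreated replicate 1 (adjusted p = 0.0854).

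The 2 DCAR genes, whose products pair with the Fc receptor gamma chain, moved in opposite directions. Clec4b1 had 140.0, 86.6 and 101 CPM after TBI and 6.17 and 6.07 CPM untreated, a log2 fold change of 4.16 ± 0.27 (adjusted p = 2.62e-05). Clec4b2 had 2.17, 2.41 and 0.522 CPM after TBI and 11.2 and 14.9 CPM untreated, a log2 fold change of -2.94 ± 0.53 (adjusted p = 0.00485), and did not pass without untreated replicate 2 (adjusted p = 0.0605). In counts, Clec4b2 had 15, 19 and 4 after TBI and 91 and 118 untreated, and Clec4b1 had 969, 684 and 777 after TBI and 50 and 48 untreated. The ratio of Clec4b1 to Clec4b2 counts was 64.6, 36.0 and 194 after TBI and 0.549 and 0.407 untreated, so the more counted gene of the pair changed. The coding sequences of the pair were 81.5% identical over 621 aligned bases. No run of 50 bases in annotated Clec4b2 transcripts occurred in another gene's transcripts, while 8.69% of such runs in Clec4b1 did, mostly in Clec4a2, with which its coding sequence was 87.1% identical.

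Clec9a encodes DNGR-1, a receptor for actin filaments exposed by dead cells that marks type 1 dendritic cells. It had 7.80, 12.5 and 12.9 CPM after TBI and 86.9 and 88.2 CPM untreated, and the groups were separated by a wide gap with a log2 fold change of -2.98 ± 0.24 (adjusted p = 5.97e-05). In GRCm38 Clec9a lies at chromosome 6, 129408862 to 129424763, and 184 bases of annotated exon overlap those of its neighbour Clec1b. How reads there were counted is not known. Of 13 other type 1 dendritic cell markers, 11 were lower, 0 were higher and 2 did not pass, and none was at 0. Their part in the Clec9a difference was not tested. Clec9a over Clec7a, as a ratio of counts, was 0.0131, 0.0192 and 0.0242 after TBI and 0.195 and 0.222 untreated.

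Clec1b encodes CLEC-2, the podoplanin receptor of platelets that is also found on some myeloid cells. It had 11.7, 20.6 and 8.88 CPM after TBI and 6.17 and 4.42 CPM untreated, a log2 fold change of 1.37 ± 0.42 (adjusted p = 0.0459). Its adjusted p was the largest of the 19, and the call was kept in 7 of 14 alternative settings, with adjusted p from 0.0209 to 0.286. Of 8 platelet and megakaryocyte markers 4 were tested, 2 (Pf4 and Ppbp) were higher and 0 were lower, and their sum was 483 to 635 CPM after TBI and 41.0 to 45.5 CPM untreated. Pf4 had 601, 449.5 and 474 CPM after TBI, most of that sum, and 7.65 and 6.19 CPM untreated. The platelet glycoproteins Gp9, Gp6, Gp1bb and Gp1ba had too few counts to be tested, at most 2.31 CPM in each library. Gp9 had 16, 7 and 6 counts after TBI and 0 and 1 untreated. Gp1bb had 14, 2 and 7 counts after TBI and 1 and 1 untreated, so both were higher without overlap. Gp6 had 0, 6 and 1 counts after TBI and 0 and 0 untreated. Gp1ba had 0, 0 and 1 counts after TBI and 1 and 3 untreated, and both overlapped. The part of platelet RNA in the Clec1b difference was not tested.

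In the DCIR family and other ITIM-bearing receptors, 3 of 4 tested genes rose and 1 fell. Clec4a2, which encodes the inhibitory receptor DCIR, had 129.9, 100.2 and 97.4 CPM after TBI and 19.2 and 16.9 CPM untreated (log2 fold change 2.59 ± 0.20; adjusted p = 5.86e-05). Its relatives Clec4a1 and Clec4a3 encode family members that lack the inhibitory motif in mice. Clec4a1 had 70.5, 68.00 and 89.1 CPM after TBI and 12.7 and 9.10 CPM untreated (2.80 ± 0.24; adjusted p = 9.33e-05). Clec4a3 had 209, 209 and 194 CPM after TBI and 40.6 and 27.7 CPM untreated (2.58 ± 0.19; adjusted p = 4.38e-05). Ratios among these 3 genes overlapped between the groups: Clec4a1 over Clec4a3 was 0.338, 0.325 and 0.460 in counts after TBI and 0.313 and 0.329 untreated, and Clec4a2 over Clec4a3 was 0.623, 0.479 and 0.503 after TBI and 0.474 and 0.612 untreated. Clec4a4, which encodes DCIR2, an antigen of type 2 dendritic cells, had 1, 6 and 3 counts after TBI and 2 and 5 counts untreated and was not tested. Of annotated Clec4a4 runs of 50 bases, 15.7% also occurred in another gene, mostly Clec4a2, so its few counts are uncertain.

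Clec12a, an inhibitory receptor for uric acid crystals, fell. It had 197, 157 and 155 CPM after TBI and 269.6 and 280.0 CPM untreated, 1.62-fold lower after TBI (log2 -0.70 ± 0.15; adjusted p = 0.0103). The call was lost without untreated replicate 1 (adjusted p = 0.0816) and without untreated replicate 2 (0.111), a fit in which the spread of the single untreated sample is taken from the TBI libraries. Clec12a and Clec9a, which flank Clec1b in the second block, both fell, though by different amounts: Clec12a over Clec9a was 25.2, 12.5 and 12.0 in counts after TBI and 3.10 and 3.17 untreated.

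Uptake receptors held both the lowest and some of the highest fold changes, with 4 of 7 tested genes higher, 2 lower and 1 not passed. Cd207, which encodes langerin, the receptor of Birbeck granules in Langerhans cells that some CD103-positive dendritic cells also carry, had 3.32, 3.55 and 6.40 CPM after TBI and 167 and 219 CPM untreated. The gene lies at chromosome 6, 83671215 to 83677857. The groups lay far apart, and the log2 fold change was -5.44 ± 0.28 (adjusted p = 8.06e-06). Ly75 encodes DEC-205, which type 1 dendritic cells and thymic cortical epithelium carry. It had 11.4, 13.4 and 13.5 CPM after TBI and 45.7 and 50.3 CPM untreated (log2 fold change -1.91 ± 0.20; adjusted p = 2.50e-04). Thymic epithelial markers summed to 48.4 to 53.7 CPM after TBI and 98.1 to 106 CPM untreated, with 0 of 8 tested higher and 2 (Epcam and Dll4) lower, and none was at 0 in both groups. The part of epithelial RNA in the Ly75 difference was not tested. Plasmacytoid dendritic cell markers fell beside Cd207, Ly75, Clec9a, Clec12a and Clec4b2. Of 14 such markers 12 were lower, 0 were higher and 2 did not pass, none was at 0, and their sum was 560.1 to 709.6 CPM after TBI and 3751 to 3834 CPM untreated. Their part in the lectin differences was not tested.

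Mrc1, the mannose receptor CD206 of many tissue macrophages, had 359, 551 and 604 CPM after TBI and 36.6 and 33.4 CPM untreated. TBI replicate 1 was the lowest TBI library and still lay far above the untreated ones, and the log2 fold change was 3.85 ± 0.26 (adjusted p = 2.65e-05). Colec12, a collectin that acts as a scavenger receptor and is known from endothelium, had 59.98, 83.3 and 63.99 CPM after TBI and 3.45 and 2.15 CPM untreated (log2 fold change 4.61 ± 0.30; adjusted p = 2.44e-05). Mrc1 lies at chromosome 2, 14229392 to 14332057, and Colec12 on chromosome 18. The paralogue of Mrc1, Mrc2, which encodes the collagen receptor Endo180 of fibroblasts, had 6, 0 and 7 counts after TBI and 0 and 0 untreated, so TBI replicate 2 had no count, like both untreated libraries, and the groups overlapped.

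Markers of other cell types also differed between the groups. Of 18 macrophage markers 15 were higher after TBI, 0 were lower and 3 did not pass. Monocyte markers summed to 29511 to 34967 CPM after TBI and 2717 to 3218 CPM untreated, with 4 of 9 tested genes higher and 3 lower. Fibroblast markers summed to 266, 32.4 and 115 CPM after TBI and 1.48 and 0.632 CPM untreated, with 5 of 5 tested genes higher and Pdgfra at 0 in each library. The fibroblast sum was highest in TBI replicate 1. Mgl2, Clec4b1 and Clec4a2 were also highest in that library among the TBI libraries. Colec12, Mrc1, Clec10a, Clec4d, Clec4e and Clec4n were lowest there, and Clec4a1, Clec4a3 and Clec4b2 lay between. Some of these orders rested on close values, such as 36.4 and 37.1 CPM for Clec4d in TBI replicates 1 and 3. No reading is drawn from the order of 3 libraries. Endothelial markers summed to 30.8 to 53.0 CPM after TBI and 139 to 162 CPM untreated, with Tek, Tie1 and Emcn at 0 in each library. Neutrophil markers summed to 339, 177 and 226 CPM after TBI and 46.5 and 293 CPM untreated, with overlap. Of the 6 tested, 1 (Csf3r) was higher and 1 (Mpo) was lower. B cell markers summed to 308 to 474 CPM after TBI and 205 to 216 CPM untreated. Of their 7 tested genes, 5 were higher and 1 was lower. The part of macrophage, monocyte, neutrophil, B cell and fibroblast RNA in the differences of Mrc1, Colec12, Mgl2 and the Clec4 genes was not tested.

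The 2 macrophage galactose-type lectins, Mgl2 (CD301b) and Clec10a (CD301a), both rose. Mgl2, at chromosome 11, 70130329 to 70137550, had 554, 510.2 and 537 CPM after TBI and 156 and 92.2 CPM untreated (log2 fold change 2.10 ± 0.22; adjusted p = 2.92e-04). Clec10a had 177, 229 and 249 CPM after TBI and 105 and 86.1 CPM untreated (1.19 ± 0.19; adjusted p = 0.00234). The ratio of Mgl2 to Clec10a counts was 3.13, 2.22 and 2.16 after TBI and 1.48 and 1.07 untreated, without overlap. Their coding sequences were 90.4% identical over 910 aligned bases, and 13.1% of 50-base runs of Mgl2 and 9.02% of those of Clec10a occurred in another gene, mostly in each other, so single values carry some uncertainty. Type 2 dendritic cell markers summed to 2627 to 3075 CPM after TBI and 1313 to 1425 CPM untreated, with 4 of 9 tested genes higher, 1 lower and 4 not passed. Their part in the Mgl2 and Clec10a differences was not tested. Clec4g, which encodes LSECtin, had 12.00, 3.04 and 1.44 CPM after TBI and 3.21 and 3.54 CPM untreated, with TBI replicate 1 above and the other TBI libraries below the untreated ones. It did not pass (log2 fold change 0.69 ± 0.80, 95% interval -1.15 to 2.53; adjusted p = 0.583), and its sign turned to -0.59 without TBI replicate 1. Clec4f, a Kupffer cell receptor in mice, had 0, 0 and 0 counts after TBI and 0 and 1 untreated.

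**Figure D5:**
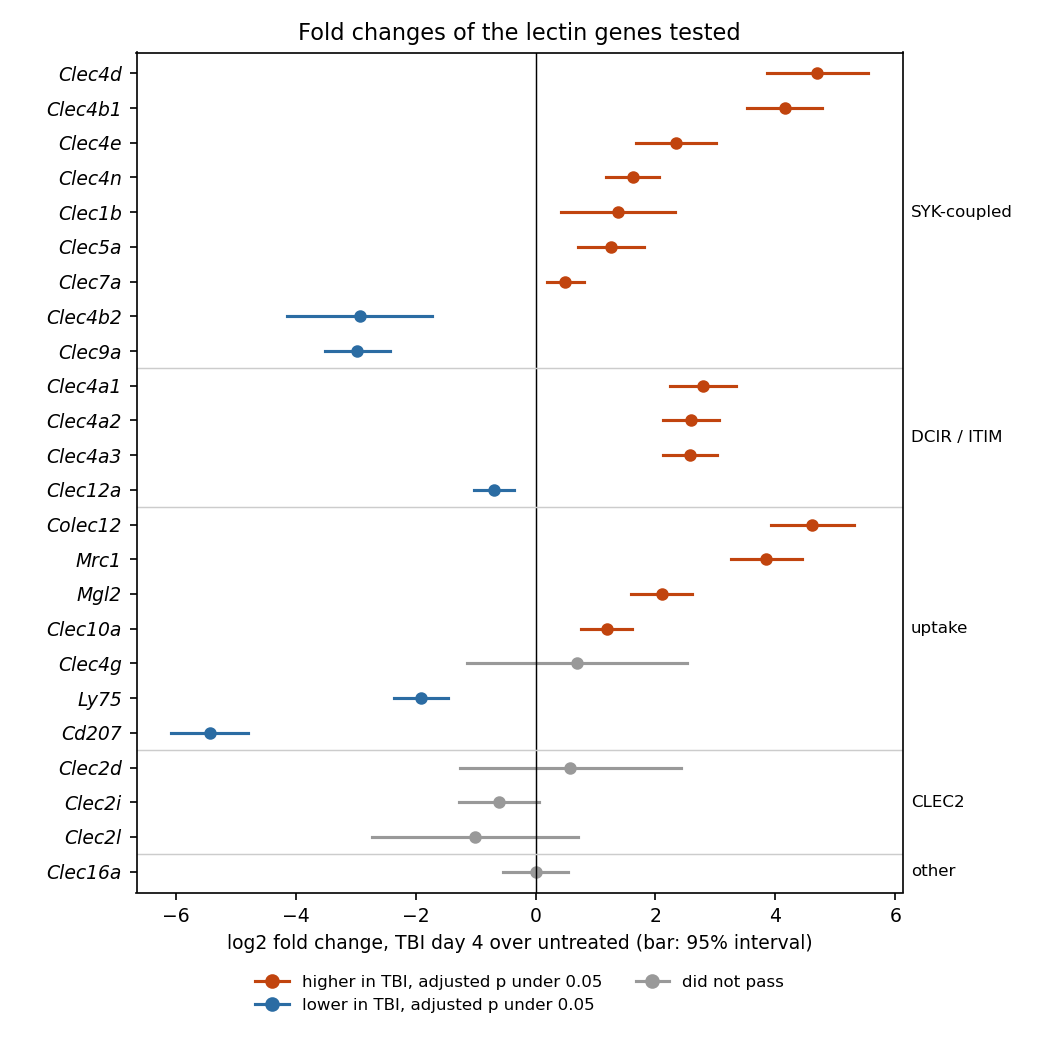
Log2 fold change, TBI day 4 over untreated, with 95% intervals (horizontal) for the 24 lectin genes tested, grouped by role (rows). Clec4d at 4.70 and Cd207 at -5.44 mark the extremes, and the 5 genes in grey have intervals that include 0.

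Some members of the CLEC2 family encode lectin-like ligands of NKR-P1 receptors on natural killer cells and other lymphocytes. None of the family's 3 tested genes passed. Clec2i had 29.8, 14.9 and 20.4 CPM after TBI and 30.7 and 35.4 CPM untreated. The groups did not overlap but were close (log2 fold change -0.61 ± 0.29, 95% interval -1.27 to 0.05; adjusted p = 0.171), and without TBI replicate 1 the gene passed at -0.91 (adjusted p = 0.0115). Clec2d, the ligand of NKR-P1B, had 29, 6 and 14 counts after TBI and 14 and 10 untreated, a difference not resolved at this depth (log2 fold change 0.58 ± 0.80, 95% interval -1.26 to 2.42), and its sign turned to -0.21 without TBI replicate 1. Clec2l had 13, 5 and 5 counts after TBI and 14 and 20 untreated (95% interval -2.73 to 0.70). Among untested members, Clec2g had 9, 9 and 12 counts after TBI and 0 and 2 untreated, a ratio of 10.7 with a 95% counting interval of 2.71 to 92.3. The annotated pseudogene Clec2f had 0, 0 and 1 counts after TBI and 8 and 5 untreated, 18.2-fold lower with an interval of 2.74 to 775. Clec2e had 1 count in all. Coding sequences of Clec2i and Clec2d were 88.3% identical, and 4.13% of 50-base runs of Clec2i occurred in another gene.

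Of the NKR-P1 receptor genes, 3 of 4 tested were higher after TBI. Klrb1c, which encodes NK1.1, had 61.4, 30.9 and 59.4 CPM after TBI and 3.33 and 1.90 CPM untreated (log2 fold change 4.26 ± 0.43; adjusted p = 2.12e-04). Klrb1f averaged 20.5 ± 6.09 CPM in TBI and 4.17 ± 1.43 CPM in untreated libraries (SD, n = 3 and n = 2). Its log2 fold change was 2.29 ± 0.38 (adjusted p = 0.00314), and Klrb1a also rose (4.79 ± 0.72). Klrb1b, whose product binds the Clec2d product, had 40.8, 23.3 and 31.2 CPM after TBI and 32.5 and 22.8 CPM untreated and did not pass (95% interval -0.44 to 0.84). Natural killer cell markers summed to 1336 to 1711 CPM after TBI and 148 to 153 CPM untreated, with 8 of 9 tested genes higher, and their part in the Klrb1 differences was not tested.

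The remaining CLEC genes were at low levels, apart from Clec16a, which encodes a regulator of endosomal and mitochondrial turnover rather than a sugar-binding receptor. Clec16a had 17.3, 13.5 and 14.4 CPM after TBI and 14.2 and 15.9 CPM untreated, with overlapping groups (log2 fold change -0.54 to 0.54 as a 95% interval; adjusted p = 0.997). Clec14a, an endothelial gene, had no count in any library. Clec1a had 2, 0 and 2 counts after TBI and 19 and 5 untreated, Clec11a had 8, 7 and 4 counts after TBI and 5 and 4 untreated, and Clec18a had 1 count in all. Clec3b, which encodes tetranectin, had 9, 0 and 5 counts after TBI and 0 and 0 untreated, with no count in TBI replicate 2 and overlapping groups. No member without a test exceeded 19 counts or 2.34 CPM in a library.

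The SYK and CARD9 pathway relays signals of the activating receptors, and the gene list used for it also held adaptor chains. Of 20 listed genes, all tested, 3 were higher (Fcer1g, Hcst and Bcl10), 1 was lower and 16 did not pass, where 13.3% of all genes tested were higher and 9.79% were lower, so the list's shares lay near those of all genes. The list's median was -0.01 on the log2 scale, and that of all genes tested was also -0.01. Fcer1g, the Fc receptor gamma chain with which Dectin-2, Mincle, MCL and DCAR pair, had 1177, 932 and 940.0 CPM after TBI and 279.7 and 287 CPM untreated (log2 fold change 1.84 ± 0.15; adjusted p = 6.77e-05). Hcst, the adaptor DAP10, had 50.2, 39.5 and 39.2 CPM after TBI and 17.3 and 14.03 CPM untreated (1.45 ± 0.22; adjusted p = 0.00211). Bcl10 was 1.45-fold higher (adjusted p = 0.0454). Macrophage, monocyte and natural killer cell markers also had higher sums after TBI. Their part in the Fcer1g and Hcst differences was not tested.

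Syk itself had 140.0, 275 and 274 CPM after TBI and 173 and 193 CPM untreated, with TBI replicate 1 below and the other TBI libraries above the untreated ones (95% interval of the log2 fold change -0.30 to 0.95). Card9 had 7.66, 4.69 and 4.57 CPM after TBI and 2.10 and 2.78 CPM untreated and did not pass (95% interval 0.13 to 2.27; adjusted p = 0.103). Tyrobp, the adaptor DAP12 used by MDL-1, had 1463, 1134 and 1089.9 CPM after TBI and 914 and 924 CPM untreated (0.42 ± 0.15; adjusted p = 0.0807). Without TBI replicate 1, 6 genes of this list were higher and 2 were lower. Of 4 phosphatases that act on ITIM receptors, all tested, 2 were lower and 0 were higher. Over all genes tested, 9.79% were lower and 13.3% were higher. The median log2 fold change of the 4 was -0.0042, against -0.0054 over all genes tested. Inpp5d (SHIP-1) had 109, 228 and 262 CPM after TBI and 403 and 410.2 CPM untreated (-1.03 ± 0.31; adjusted p = 0.0437), and Ptpn6 (SHP-1) was 1.34-fold lower after TBI (adjusted p = 0.0295).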

How the data were processed

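Per the labels' protocols, RNA of sorted thymic dendritic cells was made into SMART-Seq v4 libraries. Such libraries are amplified by PCR and hold no molecular identifiers, so counting intervals cover counting error only. What the authors deposited is a table of raw read counts, 1 row per symbol. STAR 2.5.2a, featureCounts 1.6.0, edgeR and the mm10 build are named, with no order, per the submitters' processing notes. Annotation, strand setting and multiply mapped reads are not given in the sources used here, so overlapping and near-identical genes may share reads. Titles and tags put the irradiated samples at day 4, the day used here, although a note calls them by another day. A spreadsheet had turned 23 symbols into dates (0.221% of counts).

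The test was that of edgeR 4.0.16 under R 4.3.3 (TMM, filterByExpr with a minimum count of 10 and total of 15, quasi-likelihood F-test, group as the only term, Benjamini-Hochberg over 12046 genes). Log2 fold changes are TBI minus untreated, and the SE is the size of that value divided by the square root of F. Alternatives were other scalings, filters, DESeq2 1.42.0, limma-voom 3.58.1, robust shrinkage, a replicate block and each library left out. The functions were tested on simulated data. Members, lists, motifs and settings were chosen with earlier results of these data known. Values per library were given for members with a mean of at least 10 CPM in either group. Of listed pathway genes, those that passed were named, at most 6 per list. A gene that passed is not reported here. Syk, Card9, Tyrobp and Klrb1b were named as genes that did not pass, after their values were seen. Annotation was GENCODE M21 on GRCm38 and matched all 35 symbols. Figures used matplotlib 3.10.9.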

Additional observations from a re-analysis of the deposited data

How the results depend on the processing

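Of the 19 lectin genes called, 14 were called in each of the 14 alternative settings, 5 (Clec1b, Clec7a, Clec12a, Clec4b2 and Clec5a) were not called in at least 1, and none moved by more than 1.5 times or changed sign. The lectin genes higher numbered 11 to 14 and those lower 3 to 6 with 1 library left out, with 4 lower without untreated replicate 1 and 3 without untreated replicate 2. Over all genes, 810 to 2148 were higher and 423 to 1780 lower with 1 library left out, and 2129 were lower with library size alone, which moved the median of all genes to -0.23. The share of called genes that were higher was then 36.8%, against 57.6%. The median of the lectin genes was 1.003 with library size alone, 1.09 with the replicate block and 1.07 to 1.35 with 1 library left out. In the SYK and CARD9 list the lower genes numbered 2 with upper quartile scaling, 4 with library size alone, 2 with the DESeq2 Wald test and 1 to 2 with 1 library left out, and the higher ones 2 to 6. Signs turned only for genes that did not pass. Clec16a was at -0.0038 with DESeq2 size factors, -0.041 with upper quartile scaling, -0.23 with library size alone, -0.0057 without the filter, -0.0024 with the stricter filter, -0.0039 with DESeq2, -0.0083 with limma-voom and -0.11 to 0.087 with 1 library left out. Clec2d ranged from -0.21 to 0.99 and Clec4g from -0.59 to 1.15 with 1 library left out. The causes were not tested. Deviations of same-numbered libraries from their group means correlated at -0.016 and -0.0099. With 2 untreated libraries these deviations mirror each other, so the check cannot show whether the numbers pair libraries. The replicate block gave 14 higher and 5 lower lectin genes. Depth limits the 11 genes with too few counts.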
